A study of Mus musculus with 46 samples.

Results

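The genes described here are insulin-like growth factor 1 (Igf1), its receptor (Igf1r) and the IGF-binding proteins Igfbp2, Igfbp3, Igfbp4, Igfbp5, Igfbp6 and Igfbp7. They were taken by gene symbol, 8 of the 37108 genes in the deposited gene table, and all 8 were found in both tables. RNA-seq was carried out on mouse embryonic fibroblasts (MEFs) that were infected with retroviral Oct4 together with either unmodified Nanog (NanogWT) or Nanog carrying at its N-terminus the piece of SS18 that binds BRG1, the ATPase of the BAF chromatin remodelling complex (NanogBiD, NanogN70 in the sample labels). The time course ran from day 0 (D0) to day 12 (D12), with libraries also from D1, D3 and D5 in the first medium and from D7, D8 and D10 around and after the change of medium, with 2 replicates per combination and day but a single D8 library of NanogBiD, 31 in all. A further 12 libraries came from established induced pluripotent stem cell (iPSC) lines, 6 per combination, and 2 uninfected MEF libraries and 1 mouse embryonic stem cell (mES) library served as references.

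All cells carried the OG2 reporter, in which GFP is driven by Oct4 sequences. According to the methods, the MEFs came from mid-gestation embryos of OG2 fathers and 129 mothers, of either sex and without sorting, so a library holds whatever cells such a preparation contains. D0 was the end of the second round of infection, and both combinations shared the Oct4 virus, the iCD3 medium and the change to N2B27 with 2 inhibitors and LIF at about D7. The iPSC and mES were grown without feeder cells in that second medium. The labels do not say whether replicates came from separate infections or embryos, so the p-values measure the spread between these libraries, which may be technical.

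IGF1 is a secreted growth factor that signals through the receptor tyrosine kinase IGF1R to the PI3K-AKT and MAPK pathways and promotes growth and survival. The IGF-binding proteins are secreted too. They hold IGFs in the extracellular space, prolong their life and keep them from or bring them to the receptor, and proteases such as PAPP-A and HTRA1 cut them and set the ligand free. Fibroblasts and other mesenchymal cells are a known source of IGF1 and of several binding proteins.

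The members lie on 6 chromosomes in the mm10 genome (RefSeq coordinates, GRCm38.p6). Igf1 is at chr10:87858265-87937047, Igf1r at chr7:67952257-68233668, Igfbp3 at chr11:7206086-7215498, Igfbp4 at chr11:99040005-99052655, Igfbp6 at chr15:102144186-102149512 and Igfbp7 at chr5:77349240-77408045. Igfbp2 (chr1:72824480-72852474, plus strand) and Igfbp5 (chr1:72858065-72874865, minus strand) are neighbours that point towards each other across 5590 bp. Igf1 overlaps the long noncoding RNA gene Igf1os, Igf1r overlaps Gm51488 and Gm51487, and Igfbp7 overlaps Gm34648 and the protein-coding Polr2b. Whether the authors' counting used strand is not stated, so reads in these overlaps cannot be assigned with certainty.

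Igf1, Igfbp2 and Igfbp3 are the members that were called different between the combinations at D12, and the 250 bases before the RefSeq start of each are shown for that reason, in the direction of the gene. Capitals mark matches on either strand to the GC box, spelled GGGCGG, or to the CCAAT box. Searched as well were the TATA box, spelled TATAAA, and the AP-1 site, spelled TGACTCA. The octamer of POU factors such as Oct4, spelled ATGCAAAT, was the last motif searched. The Igf1 window, chr10:87860861-87861110 on the plus strand, precedes a start inside the annotated gene, as does that of Igfbp3. The Igfbp2 window is chr1:72824230-72824479 on the plus strand, and that of Igfbp3 is chr11:7213924-7214173 on the minus strand.
Igf1: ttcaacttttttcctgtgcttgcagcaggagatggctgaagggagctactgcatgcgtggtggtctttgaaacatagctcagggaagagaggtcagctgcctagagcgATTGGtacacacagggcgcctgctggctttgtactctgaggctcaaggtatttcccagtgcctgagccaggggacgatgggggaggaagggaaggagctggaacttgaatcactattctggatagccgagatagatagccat
Igfbp2: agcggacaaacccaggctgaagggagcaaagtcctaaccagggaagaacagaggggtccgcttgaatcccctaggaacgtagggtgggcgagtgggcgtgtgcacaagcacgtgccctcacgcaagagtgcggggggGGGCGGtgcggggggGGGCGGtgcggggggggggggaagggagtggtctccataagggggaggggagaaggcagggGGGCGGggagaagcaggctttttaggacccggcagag
Igfbp3: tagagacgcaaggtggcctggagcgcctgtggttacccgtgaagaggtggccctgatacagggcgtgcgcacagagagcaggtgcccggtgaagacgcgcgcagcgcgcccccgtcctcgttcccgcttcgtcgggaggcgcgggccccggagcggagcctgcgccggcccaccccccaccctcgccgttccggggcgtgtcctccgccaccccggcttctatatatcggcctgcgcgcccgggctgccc
The Igfbp2 window held 3 GC boxes, and 32.7% of the 32851 mouse windows of the same length held at least 1. The Igf1 window held 1 CCAAT box, a match present in 33.8% of windows, and none of the searched letters occurred in the Igfbp3 window. TATA boxes, AP-1 sites and octamers were in 12.4%, 4.46% and 1.60% of all windows and in none of these 3. Only exact spellings were searched, so similar letters, such as tatatat near the end of the Igfbp3 window, were not counted. RefSeq lists a second start for Igfbp2, and its window, chr1:72825137-72825386, held 1 AP-1 site and no GC box. The windows also differ in CpG dinucleotides, of which Igf1 has 5, Igfbp2 14 and Igfbp3 32, against a median of 6 over all windows.

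Values are FPKM, which scale reads by gene length and library size, and were compared as log2(FPKM + 1) with limma. A gene was called where the Benjamini-Hochberg adjusted p over all genes tested was under 0.05 and the log2 difference was at least 1 in size. Depth in reads is not part of the tables, but relative depth could be read from the steps between low values. It was 0.875 to 1.10 in the 20 libraries of D0 to D7 and 0.813 to 1.02 in the 5 NanogBiD libraries of D8 to D12, but 1.86 to 3.19 in the 6 NanogWT libraries of D8 to D12. Between the combinations, and within NanogWT, depth and group therefore cannot be told apart from D8 on. All 6 fibroblast markers (Col1a1, Col1a2, Col3a1, Pdgfrb, Thy1, Fn1) were at 1 FPKM or more in every time-course library. Their sum was 384 to 840 FPKM in NanogBiD at D8 to D12 and 1934 to 3243 FPKM in NanogWT at those days, while the 6 pluripotency markers summed to 294 to 1876 FPKM and 1.09 to 184 FPKM. The 6 macrophage markers summed to 3.64 to 8.64 FPKM in NanogBiD and 7.65 to 43.0 FPKM in NanogWT at D8 to D12. The markers already differed earlier. The fibroblast sum was 1167 to 1432 FPKM with NanogBiD and 1758 to 1818 FPKM with NanogWT at D1, and 365 to 567 against 695 to 1078 FPKM over D3 to D7. At D7 the pluripotency markers summed to 82.3 and 89.8 FPKM with NanogBiD and to 2.31 and 3.06 FPKM with NanogWT, and the 4 epithelial markers to 29.4 and 33.4 against 5.18 and 5.39 FPKM. The 4 skeletal muscle markers, of which 1 (Des) reached 1 FPKM, summed to 6.19 and 14.7 against 59.3 and 90.2 FPKM. In bulk RNA, fewer cells of a type and less RNA per cell cannot be told apart, and the part of these differences in cell markers in the results from D1 on was not tested.

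Igf1, the ligand, was lower at D1 than at D0 in both combinations and then rose in both up to D7. Late in the time course it was higher still with NanogWT and fell again with NanogBiD. The group means at D1 were 1.21 FPKM with NanogBiD and 1.82 FPKM with NanogWT, and the change from D0 to D1 was not tested. With NanogBiD the libraries of D1 and D10 overlapped, so a low level was not new at D10. With NanogBiD the replicates were at 6.11 and 4.58 FPKM at D0, 9.04 and 9.40 on D7, then 1.15 and 1.34 on D10, and ended at 0.757 and 1.07 on D12. With NanogWT they were at 2.58 and 4.07 FPKM at D0, 15.1 in both libraries on D7, then 30.9 and 24.9 on D10, and ended at 22.3 and 26.4 on D12. The single NanogBiD library of D8 had 3.88 FPKM, and both NanogWT libraries of that day had at least 26.1. The 2 combinations did not overlap on these days, with NanogBiD the higher one at D0 and NanogWT the higher one later, and the gap was widest at D10 and D12.

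Up to D7, Igf1 in NanogBiD was between 0.505 and 1.61 times its NanogWT level, and the difference was called on none of these days. At D10 the mean of NanogWT was 22.4 times that of NanogBiD (log2 difference -3.68 ± 0.23 (SE, n = 2 per group), adjusted p = 2.73e-10 by limma) and at D12 26.6 times (-3.73 ± 0.23, adjusted p = 2.18e-10). Within NanogWT, Igf1 rose by 1.92 ± 0.23 on the log2 scale from D0 to D7 (adjusted p = 1.47e-06 by limma) and the further difference to D12 was 0.65 ± 0.23, not called. Within NanogBiD it fell by 2.42 ± 0.23 from D7 to D12 (adjusted p = 6.09e-08 by limma). The highest group means were those of NanogWT at D8, D10 and D12, whose libraries overlapped with each other and lay above all other groups. The mES library was listed at 0.

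**Figure D1:**
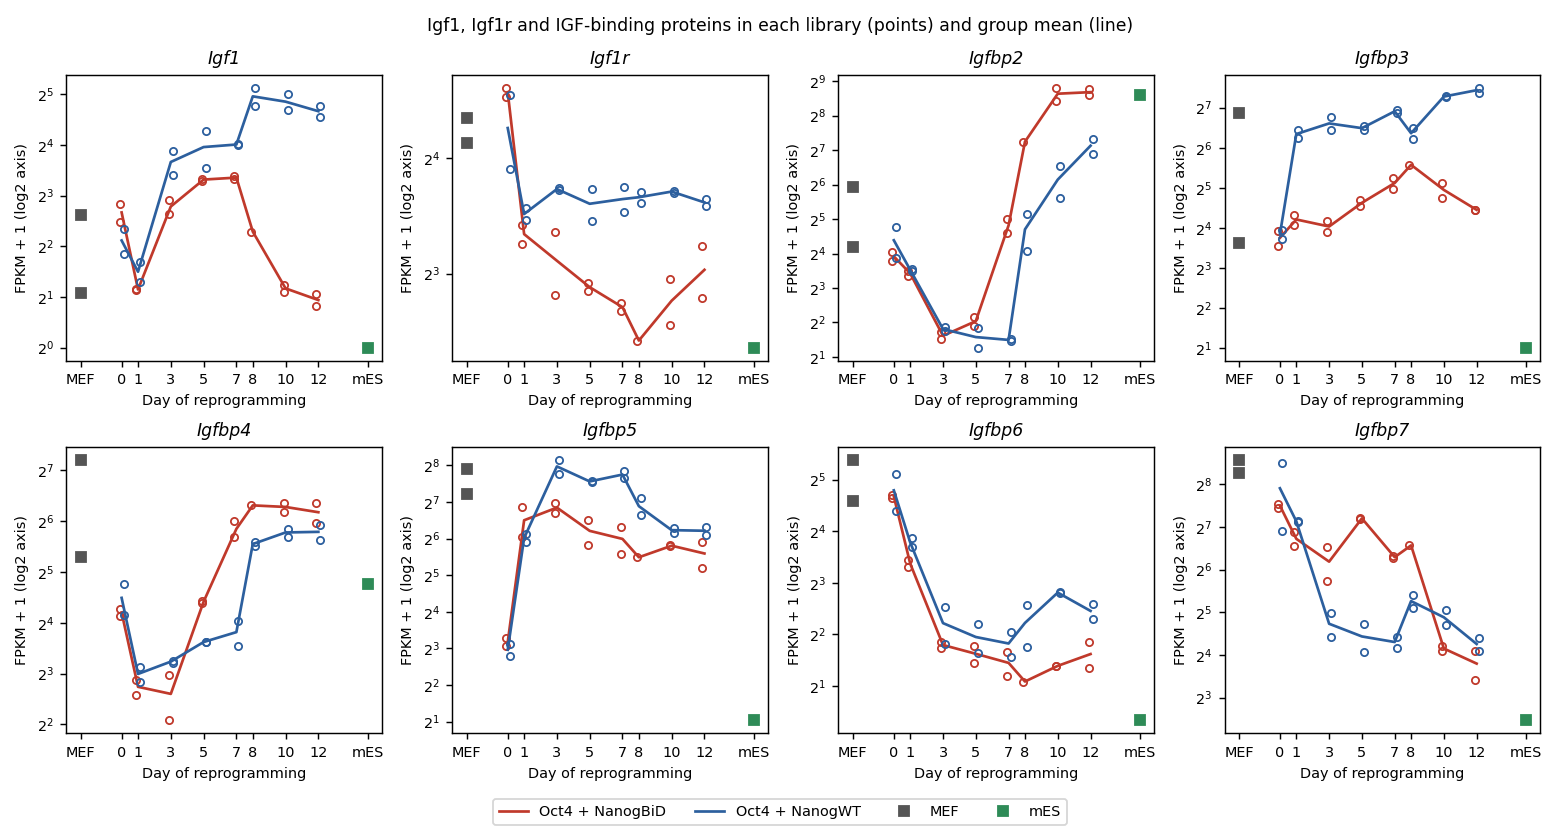
FPKM + 1 on a log2 axis against day of reprogramming for the 8 genes, with NanogBiD in red and NanogWT in blue (circles are libraries, lines are group means), MEF as grey and mES as green squares. Igf1 and Igfbp3 lie higher in NanogWT late in the time course (24.3 against 0.914 FPKM and 172 against 20.9 FPKM at D12), whereas Igfbp2 reaches 409 FPKM in NanogBiD, close to the 390 FPKM of the mES library.

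Igf1r, the receptor, fell in both combinations early on and settled at a lower level with NanogBiD. It was at 22.2 and 23.5 FPKM at D0 of NanogBiD and at 14.0 and 22.4 FPKM at D0 of NanogWT. At D7 the NanogBiD libraries had 5.70 and 5.38 FPKM and the NanogWT libraries 12.4 and 10.6 FPKM. All NanogBiD libraries from D3 to D12 (4.35 to 9.25 FPKM) lay below all NanogWT libraries of those days (10.0 to 12.4 FPKM).

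The fall from D0 to D7 was 1.87 ± 0.20 on the log2 scale with NanogBiD (adjusted p = 3.69e-07 by limma), and the NanogWT difference of -0.58 ± 0.20 missed the 2-fold limit. The difference between these changes was itself called (-1.28 ± 0.29, adjusted p = 0.00417 by limma), although without replicate 1 of NanogWT at D0 it was -0.96 and under the 2-fold limit. At single days the difference between the combinations passed the p threshold at D3, D5, D7, D10 and D12, with the mean of NanogWT 1.57 to 2.09 times that of NanogBiD, but none reached the limit for a call. The level in the mES library, 4.13 FPKM, was just under that of the single NanogBiD library of D8, 4.35 FPKM.

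The binding proteins did not move as a group. Igfbp3 was called lower with NanogBiD at every tested day from D1 on and Igfbp5 at D3, D5 and D7, Igfbp2, Igfbp4 and Igfbp7 were higher with it at some of the days, and Igfbp6 fell in both combinations. The number of members called between the combinations was 0 of 8 at D0 (background of all genes 0.76%), 1 at D1 (1.33%), 3 at D3 (3.7%), 3 at D5 (6.48%), 5 at D7 (10.4%), 4 at D10 (27.8%) and 3 at D12 (23.4%). The medians of the log2 differences over the members ran from -0.84 at D10 to -0.08 at D0, and those over all genes from 0.01 to 0.17.

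**Figure D2:**
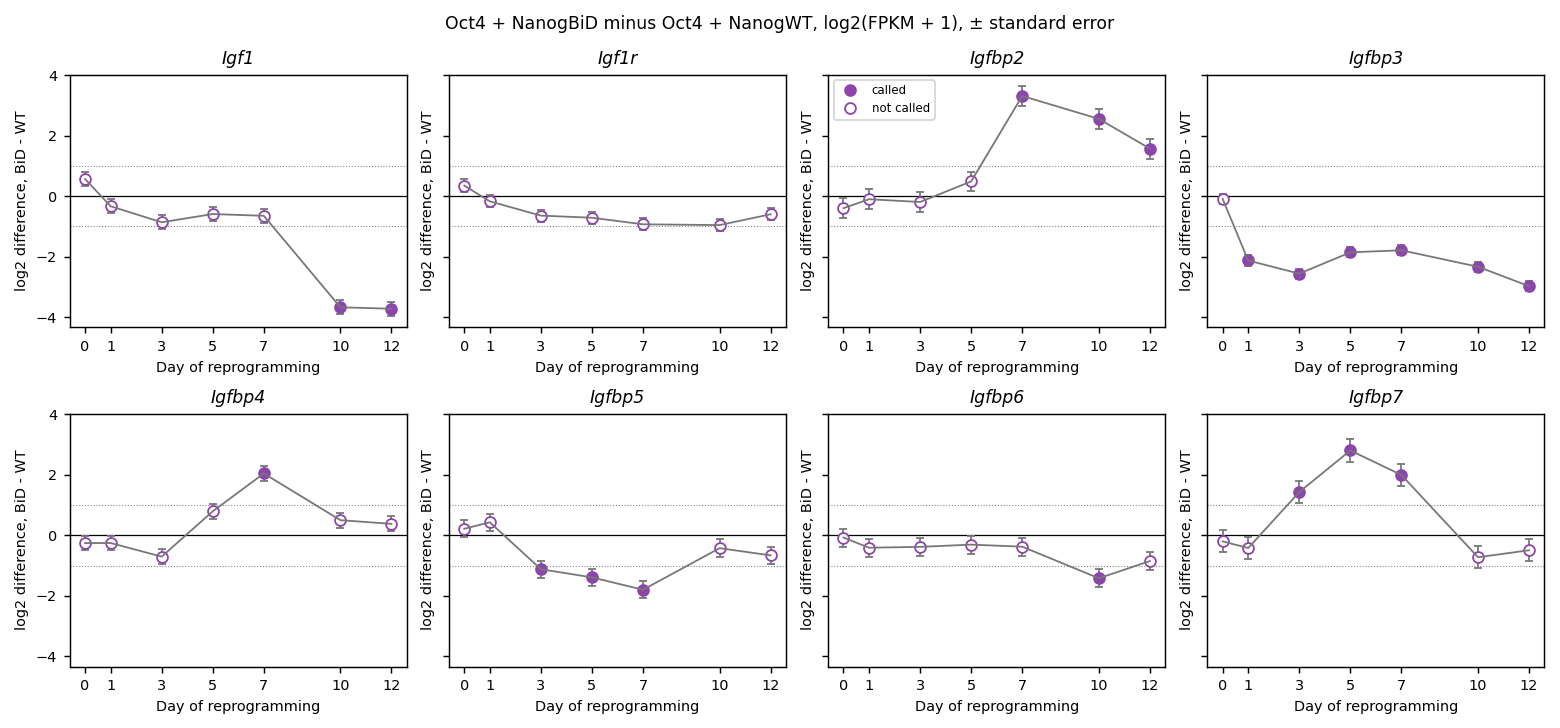
log2 difference of NanogBiD minus NanogWT against day of reprogramming for each gene, with the standard error as bars; filled points were called and dotted lines mark a 2-fold difference. Igfbp3 is the one gene called at every tested day from D1 to D12 (-2.13 at D1, -2.98 at D12), and Igfbp2 has the largest positive value, 3.31 at D7.

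Igfbp3, the main carrier of IGFs in blood and a common product of fibroblasts, separated the combinations from the first day of reprogramming. At D0 it was at 10.7 and 14.3 FPKM with NanogBiD and at 14.5 and 12.2 FPKM with NanogWT. At D1 the NanogWT libraries had 85.6 and 74.7 FPKM and the NanogBiD libraries 15.9 and 19.2 FPKM, and at D12 the values were 164 and 180 against 21.0 and 20.8 FPKM. The D0 libraries overlapped, and from D1 on the lowest NanogWT library, 73.6 FPKM, lay above the highest NanogBiD library, 46.7 FPKM.

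The Igfbp3 mean of NanogWT was 4.57 times that of NanogBiD at D1 (log2 difference -2.13 ± 0.17 (SE, n = 2 per group), adjusted p = 3.94e-07 by limma), 6.25 times at D3, 3.74 times at D5, 3.52 times at D7, 5.15 times at D10 and 8.23 times at D12 (-2.98 ± 0.17, adjusted p = 6.12e-11). It was the only member called at D1, where 224 of 16842 genes were called. From D0 to D7 Igfbp3 rose in both combinations, by 3.07 ± 0.17 on the log2 scale with NanogWT and by 1.37 ± 0.17 with NanogBiD, and the difference between these rises was -1.70 ± 0.24 (adjusted p = 6.24e-05 by limma).

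Igfbp5, a binding protein that attaches to extracellular matrix, rose more than any other member within 3 days. It was at 8.66 and 7.37 FPKM at D0 of NanogBiD and at 125 and 103 FPKM at D3. With NanogWT it went from 5.87 and 7.71 FPKM to 282 and 218 FPKM. At D1, on the way, the groups overlapped, at 114 and 64.6 FPKM with NanogBiD and 68.5 and 58.8 FPKM with NanogWT. To D3 this was a 14.2-fold rise with NanogBiD (log2 difference 3.67 ± 0.29, adjusted p = 7.75e-09 by limma) and a 36.8-fold rise with NanogWT (5.01 ± 0.29, adjusted p = 1.11e-10).

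At D7 Igfbp5 was at 78.1 and 47.0 FPKM with NanogBiD and at 229 and 199 FPKM with NanogWT, and the groups did not overlap at D3, D5 and D7. The NanogWT mean was 2.19 times that of NanogBiD at D3, 2.57 times at D5 and 3.42 times at D7 (log2 difference -1.80 ± 0.29, adjusted p = 9.74e-05 by limma). The call at D3 was lost without replicate 2 of NanogBiD (-0.98, adjusted p = 0.0919 by limma) or replicate 1 of NanogWT (-0.94, adjusted p = 0.147), and the call at D5 without replicate 1 of NanogBiD (-1.05, adjusted p = 0.0601). By D12 the NanogWT level had fallen to 78.5 and 67.9 FPKM, against 35.3 and 59.2 FPKM with NanogBiD, and the difference of -0.66 ± 0.29 was not called.

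Igfbp2 went the opposite way from Igfbp3. It is a binding protein of many embryonic tissues, and in these data it was abundant in the pluripotent cells, at 390 FPKM in the mES library. Both combinations first lost it, from 15.5 and 12.8 FPKM at D0 to 2.27 and 1.85 FPKM at D3 with NanogBiD and from 26.3 and 13.5 FPKM to 2.39 and 2.62 FPKM with NanogWT. At D7 the NanogBiD libraries were back at 31.1 and 23.3 FPKM while the NanogWT libraries stood at 1.74 and 1.90 FPKM.

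The NanogBiD mean of Igfbp2 was 27.2 FPKM at D7 and that of NanogWT 1.82 FPKM (log2 difference 3.31 ± 0.33 (SE, n = 2 per group), adjusted p = 3.57e-07 by limma). NanogWT followed: it was at 15.9 and 34.1 FPKM at D8, 47.8 and 91.6 FPKM at D10 and 160 and 117 FPKM at D12, when NanogBiD was at 151, then 449 and 344, then 434 and 385 FPKM. The difference was 2.55 ± 0.33 at D10 (adjusted p = 2.13e-06 by limma) and 1.57 ± 0.33 at D12 (adjusted p = 0.000537), with no overlap of libraries at D7, D8, D10 or D12. Between D7 and D12 Igfbp2 rose 76.4-fold with NanogWT and 15.1-fold with NanogBiD. The NanogBiD libraries of D10 and D12 lay on both sides of the mES value.

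Igfbp4, which binds IGFs and is cut by PAPP-A, fell and recovered in the same order, NanogBiD first. It was at 18.3 and 16.6 FPKM at D0, 6.89 and 3.24 at D3, 62.8 and 50.6 at D7 and 61.4 and 81.3 at D12 with NanogBiD. With NanogWT it was at 26.2 and 16.8, then 8.53 and 8.30, then 15.5 and 10.7, then 60.1 and 48.7 FPKM. The groups were apart at D7, where the NanogBiD mean was 4.33 times that of NanogWT (log2 difference 2.05 ± 0.24, adjusted p = 3.53e-06 by limma).

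At D12 the lower NanogBiD library, 61.4 FPKM, was just above the higher NanogWT library, 60.1 FPKM, and the difference of 0.38 ± 0.24 was not called. NanogWT made most of its rise between D7 and D8, from 15.5 and 10.7 FPKM to 47.1 and 44.6 FPKM. The change from D0 to D7 differed between the combinations by 2.30 ± 0.35 (adjusted p = 0.000129 by limma), and that from D0 to D12 by 0.64 ± 0.35, which was not called.

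Igfbp7, a secreted protein related to the binding proteins that binds IGFs only weakly, fell in both combinations. It rebounded at D5 in NanogBiD and was higher at D8 than at D7 in NanogWT. It was the most abundant member in MEFs, at 305 and 379 FPKM. At D1 it was at 116 and 92.9 FPKM with NanogBiD and higher with NanogWT, at 139 and 140 FPKM. At D3 the values were 91.2 and 52.5 FPKM with NanogBiD and 20.4 and 30.7 FPKM with NanogWT. At D5 it was at 148 and 144 FPKM with NanogBiD and at 15.7 and 25.5 FPKM with NanogWT, and at D7 at 76.6 and 78.2 against 16.9 and 20.5 FPKM. At D8 it was at 33.3 and 41.4 FPKM with NanogWT, at the depth gap given above, and at 93.9 FPKM in the single NanogBiD library. By D12 it was at 9.61 and 16.2 FPKM with NanogBiD and at 20.1 and 16.1 FPKM with NanogWT, so that the groups overlapped.

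The NanogBiD mean of Igfbp7 was 2.81 times that of NanogWT at D3 (log2 difference 1.43 ± 0.37, adjusted p = 0.0157 by limma), 7.10 times at D5 (2.81 ± 0.37, adjusted p = 1.89e-05) and 4.13 times at D7 (2.00 ± 0.37, adjusted p = 0.000377). The call at D3 was lost without replicate 1 of NanogBiD (1.04, adjusted p = 0.182 by limma) or replicate 1 of NanogWT (1.15, adjusted p = 0.160). The replicates of NanogWT at D0, 360 and 119 FPKM, lay far apart, and the NanogBiD libraries of D0, 187 and 174 FPKM, lay between them. From D7 to D12 Igfbp7 fell by 2.54 ± 0.37 with NanogBiD (adjusted p = 1.28e-05 by limma), against a difference of -0.05 ± 0.37 with NanogWT.

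Igfbp6, a binding protein that prefers IGF2, fell in both combinations and stayed low. It was at 25.2 and 23.9 FPKM at D0 of NanogBiD, 2.59 and 2.35 at D3 and 1.54 and 2.62 at D12. With NanogWT it was at 33.5 and 19.9 FPKM at D0, 2.52 and 4.80 at D3 and 3.95 and 5.03 at D12. The fall from D0 to D3 was 2.88 ± 0.30 on the log2 scale with NanogBiD and 2.57 ± 0.30 with NanogWT (adjusted p = 2.65e-07 and 1.15e-06 by limma), and D10 was the only day with a call between the combinations (-1.42 ± 0.30, adjusted p = 0.000451).

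Within each combination, most members were called against D0. From D0 to D3 6 of 8 were called with NanogBiD (background 15%) and 7 of 8 with NanogWT (14.7%), and from D0 to D7 6 of 8 with each (18.8% and 17.7%). From D7 to D12 3 of 8 were called with NanogBiD (20%), Igfbp2 upwards and Igf1 and Igfbp7 downwards, and 3 of 8 with NanogWT (11.3%), Igfbp2 and Igfbp4 upwards and Igfbp5 downwards. From D0 to D12 7 of 8 were called with each (34.7% for NanogBiD and 16.2% for NanogWT). The change from D0 to D7 differed between the combinations for 7 of 8 members (10.1%), all but Igfbp6, and the change from D0 to D12 for 3 of 8 (23.9%), Igf1, Igfbp2 and Igfbp3. These contrasts share their D0 libraries. Calls lost without 1 library were Igfbp7 from D0 to D3 with NanogBiD (-0.97 without its D3 replicate 2), Igfbp4 from D0 to D3 with NanogWT (-0.92 without its D0 replicate 1) and Igfbp7 from D0 to D7 with NanogBiD (-1.16 without its D0 replicate 1 and -1.19 without its D7 replicate 1). For the difference between the combinations in the change of Igf1 from D0 to D7, -1.22 ± 0.33, the call was lost without replicate 1 of NanogBiD at D0 (-1.04) or replicate 1 of NanogWT at D0 (-0.97).

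Because FPKM are per length, the 6 binding proteins can be set beside each other as shares of their summed FPKM. At D0 Igfbp7 made up 70.1% ± 0.41 (SD, n = 2) of the sum with NanogBiD and 70.0% ± 10.2 with NanogWT. At D7 the share with NanogWT was 57.9% ± 1.79 for Igfbp5 and 32.3% ± 1.11 for Igfbp3, and Igfbp2 was at 0.494% ± 0.063. With NanogBiD at D7 the sum was spread more evenly, and Igfbp7, Igfbp5 and Igfbp4 stood at 30.2% ± 5.19, 23.7% ± 4.78 and 21.9% ± 0.082.

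At D12 Igfbp2 made up 72.6% ± 6.35 of the sum with NanogBiD and 29.9% ± 4.21 with NanogWT, where Igfbp3 had 37.5% ± 5.47. In the mES library Igfbp2 made up 92.2%. The sum itself was 564 ± 1.46 FPKM with NanogBiD and 461 ± 36.6 FPKM with NanogWT at D12, and 761 ± 204 FPKM in MEFs. These shares are a description of the FPKM values and were not tested.

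**Figure D3:**
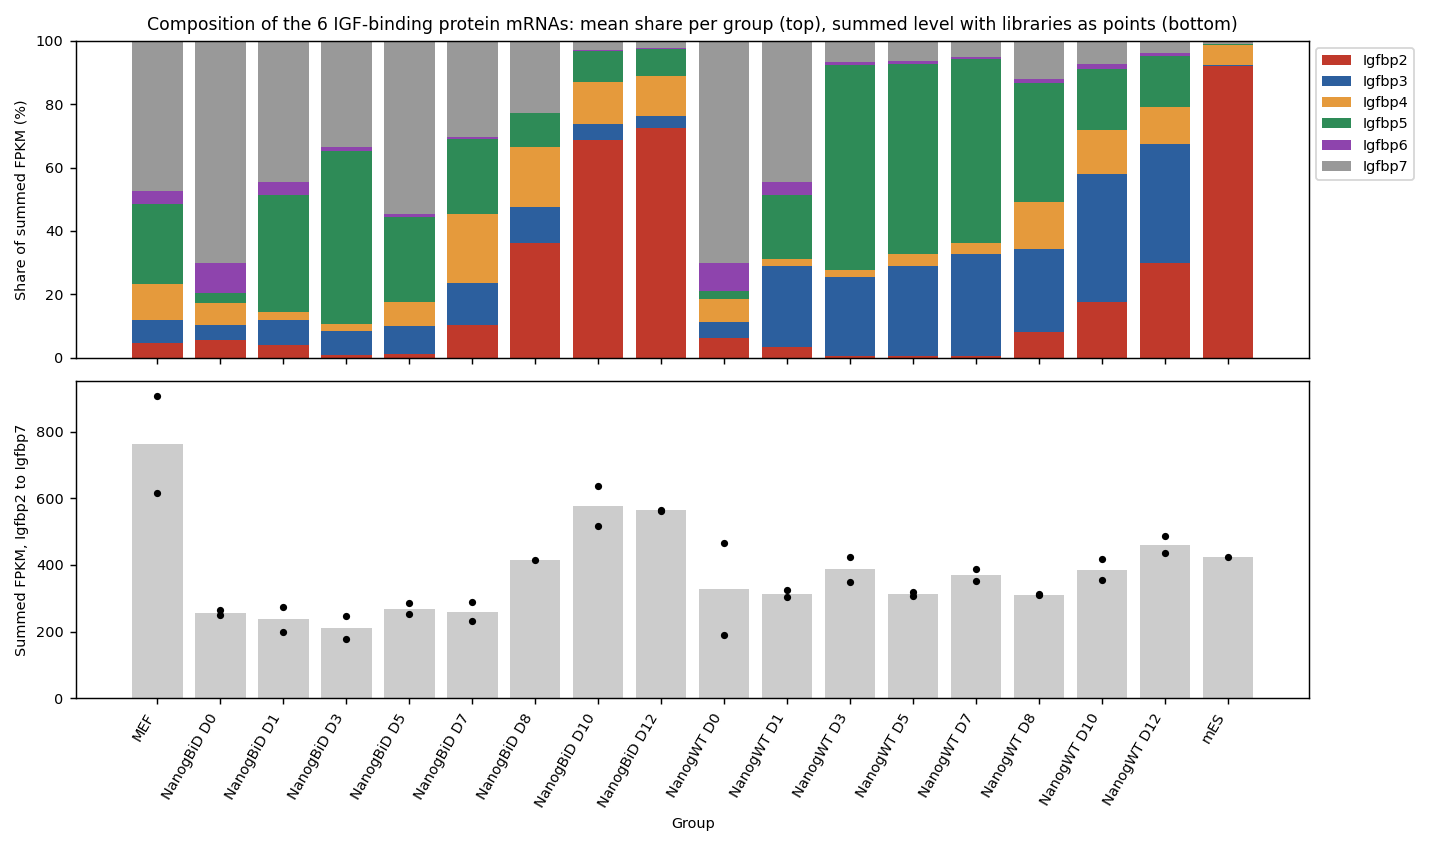
Share in percent of each of the 6 binding proteins in their summed FPKM (top, group means stacked to 100) and the summed FPKM itself (bottom, bars are group means and points are libraries) for MEF, the 2 combinations by day and mES. Igfbp2 grows to 72.6% with NanogBiD at D12, whereas with NanogWT Igfbp5 and Igfbp3 hold 57.9% and 32.3% at D7.

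The infected cells at D0 were also set against the uninfected MEFs. Igfbp5 was at 239 and 148 FPKM in MEFs and at 5.87 to 8.66 FPKM in the 4 libraries of D0, a difference of -4.39 ± 0.30 with NanogBiD (adjusted p = 1.77e-09 by limma) and -4.61 ± 0.30 with NanogWT (adjusted p = 1.45e-09). Igfbp4 was at 146 and 38.3 FPKM in MEFs and at 16.6 to 26.2 FPKM at D0 (-2.05 ± 0.38 and -1.79 ± 0.38, adjusted p = 0.000429 and 0.00224). In all, 4 of 8 members were called with NanogBiD (background 11.3%), Igfbp2, Igfbp3, Igfbp4 and Igfbp5, and 2 of 8 with NanogWT (6.77%), Igfbp4 and Igfbp5, each one lower at D0. The 6 fibroblast markers were lower as well, with sums of 2084 to 2539 FPKM at D0 and 6471 and 7229 FPKM in MEFs.

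The MEF libraries disagreed on several members. Replicates 1 and 2 had 115 and 11.3 FPKM of Igfbp3, 59.7 and 17.3 FPKM of Igfbp2, 146 and 38.3 FPKM of Igfbp4 and 5.17 and 1.12 FPKM of Igf1. Without MEF replicate 1 the Igfbp3 difference of NanogBiD at D0 turned to 0.13 and the Igfbp2 difference fell to -0.28, neither of them called. Both calls were also lost without either D0 replicate of NanogBiD, with Igfbp2 at -1.28 and -1.02 (adjusted p = 0.0931 and 0.197 by limma) and Igfbp3 at -1.31 and -1.68 (adjusted p = 0.183 and 0.0881). Without MEF replicate 1 the Igfbp4 difference of NanogWT fell to -0.84 (adjusted p = 0.0740 by limma). Macrophage markers were also higher at D0 than in MEFs, with sums over the 6 genes of 49.7 to 143 FPKM against 4.29 and 8.48 FPKM, and the part of either marker list in these differences was not tested.

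In the established iPSC lines no member was called different between the combinations. Igfbp2 was at 195, 260 and 506 FPKM (lowest, median and highest of 6) in NanogBiD lines and at 226, 394 and 510 FPKM in NanogWT lines. Igf1r was at 2.19, 3.30 and 3.81 FPKM and at 1.88, 3.16 and 4.73 FPKM. The 2 sets of lines overlapped for every member, and 0 of the 5 members that passed the filter were called (background 0%). Over all genes limma called 0 of 12456 at this threshold and 201 had an unadjusted p under 0.05. By their labels, all iPSC1 libraries were of a later passage than all iPSC2 libraries. Mean Igfbp2 with NanogBiD was 399 FPKM in iPSC1 (n = 3) and 230 FPKM in iPSC2 (n = 3), with overlapping libraries. With NanogWT it was 449 FPKM (n = 4) and 240 FPKM (n = 2), without overlap. This difference was not tested, and the line covariate of the fit stands for passage as well.

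Igf1, Igfbp4 and Igfbp6 did not pass the filter among the iPSC, where their highest values were 0.174, 0.918 and 0.810 FPKM. The differences of the other 5 were 0.02 ± 0.16 for Igf1r, -0.16 ± 0.17 for Igfbp2, 0.27 ± 0.50 for Igfbp3, 0.51 ± 0.57 for Igfbp5 and 0.53 ± 0.93 for Igfbp7 (log2, SE). For the last 3, a 2-fold higher level with NanogBiD lies within about 2 standard errors, and a 2-fold lower level does so for Igfbp7 only. Igfbp2 made up 72.7% to 99.4% of the binding protein sum in the 12 libraries.

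**Figure D4:**
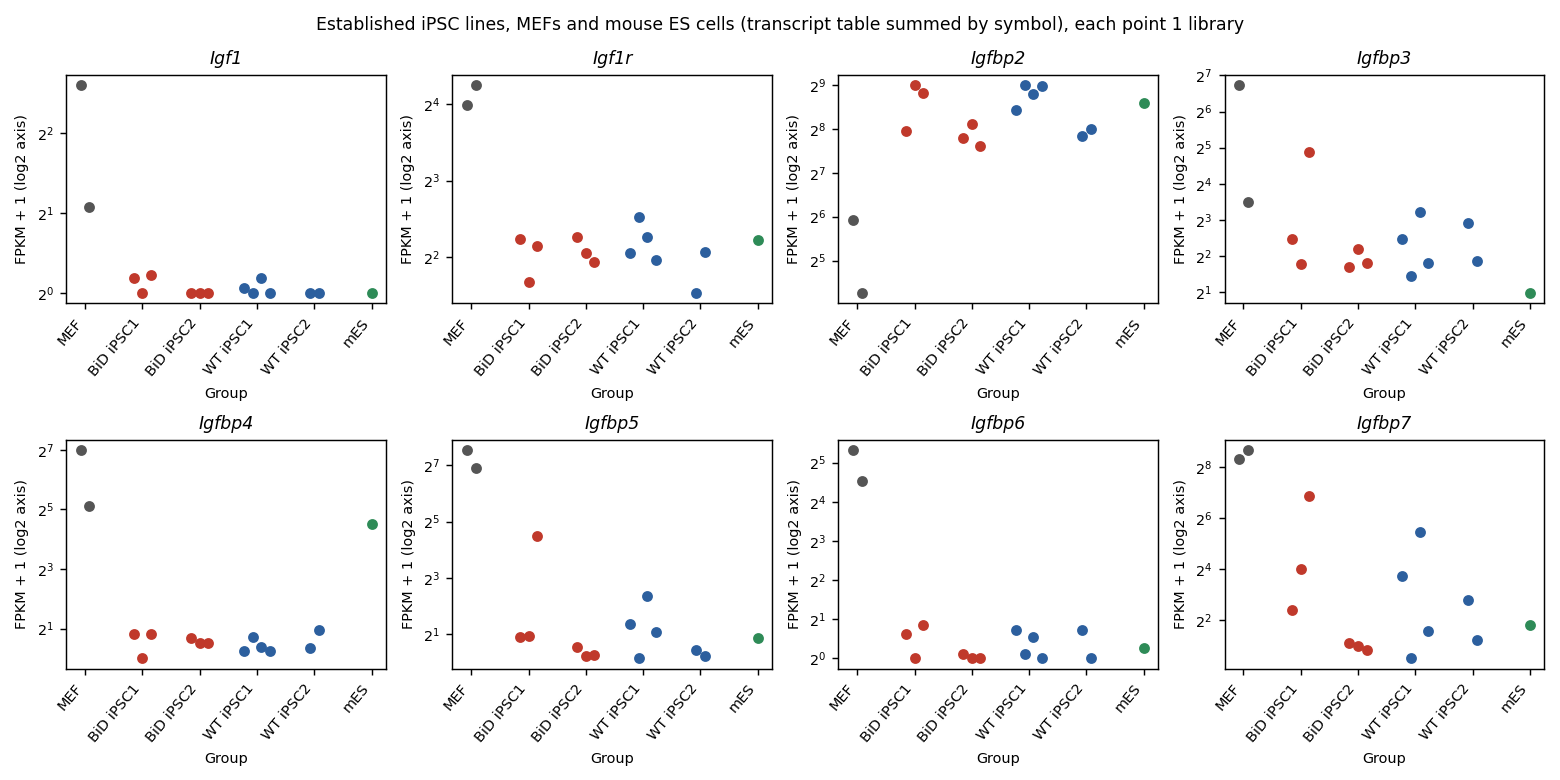
FPKM + 1 on a log2 axis in MEF, the 2 NanogBiD and 2 NanogWT groups of iPSC lines and mES, with each point 1 library, from the transcript table summed by gene. Igfbp2 is at 195 to 510 FPKM in all iPSC libraries, above both MEF libraries, and Igfbp4 is at 21.6 FPKM in mES but below 1 FPKM in every iPSC library.

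Against MEFs all of the same 5 members were called in the iPSC. The background was 40.7% of all genes tested, and unlike the 5 members it includes genes that passed the filter only through MEFs. Igfbp2 was higher by 3.19 ± 0.34 on the log2 scale (adjusted p = 3.11e-06 by limma) and the other 4 were lower, from -2.10 ± 0.20 for Igf1r to -6.20 ± 0.74 for Igfbp5. Igf1, Igfbp4 and Igfbp6 passed the filter here only through the MEF libraries, so their lower values in the iPSC were set by the filter and are not counted. Without MEF replicate 1 the Igfbp3 difference was -1.11 (adjusted p = 0.286 by limma).

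Igfbp4 set the mES library apart from the iPSC. It was at 21.6 FPKM there in the transcript table and between 0 and 0.918 FPKM in the 12 iPSC libraries. With 1 mES library, labelled with a later passage than any iPSC library, there was no test of this difference. Igfbp2 (384 FPKM), Igf1r (3.69 FPKM) and Igf1 (0 FPKM) of the mES library lay within the range of the iPSC, and Igfbp3 (0.964 FPKM) lay below it.

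Replicate 9 of the NanogBiD iPSC1 lines stood apart. It had 28.4 FPKM of Igfbp3, 21.7 of Igfbp5 and 117 of Igfbp7, against highest values of 8.39, 4.18 and 42.5 FPKM in the other 11 libraries. Its 6 fibroblast markers summed to 1675 FPKM against 164 to 629 FPKM in the others, and its 6 pluripotency markers to 1647 FPKM against 2406 to 4781 FPKM. With this library left out the comparison of the combinations still called 0 members.

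The transcript table held 30 transcripts of the 8 genes. Of the 14 transcripts listed for Igf1, 5 were above 0 in any library, and NM_001111275.2 had the highest mean. For Igfbp2 nearly all FPKM lay on NM_008342.3, with 383.7 FPKM in the mES library against 0.279 FPKM on NM_001310659.1. Igfbp4, Igfbp5 and Igfbp6 had 1 listed transcript each.

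The wider IGF pathway was followed on a list of 37 genes by role, of which 32 passed the filter in the time course. Between the combinations 5 of these 32 were called at D7 (background of all genes 10.4%), 4 higher and 1 lower with NanogBiD, and 13 at D12 (23.4%), 4 higher and 9 lower. The D7 count is near the background. The medians over the list were 0.02 at D7 and -0.43 at D12, against 0.08 and 0.17 over all genes.

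By size, the leading genes at D7 were Igf2bp1, which encodes an Igf2 mRNA-binding protein (log2 difference 2.48 ± 0.24), Socs2, a feedback inhibitor of growth hormone signalling (2.00 ± 0.24), and Htra1, a secreted protease that cuts binding proteins (-1.36 ± 0.21). Igf2bp1 was at 14.0 and 15.4 FPKM with NanogBiD at D7 and at 1.82 and 1.81 FPKM with NanogWT. Socs2 was at 10.0 FPKM or more in both NanogBiD libraries, against 1.68 and 2.08 FPKM. The groups were apart for both genes.

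At D12 the leading genes were Htra1 (-4.05 ± 0.21, adjusted p = 2.2e-11 by limma), Pappa, the protease that cleaves IGFBP4 (-3.73 ± 0.37, adjusted p = 1.0e-07), and Grb14, an adaptor that inhibits insulin receptor signalling (-2.38 ± 0.18, adjusted p = 3.7e-09). Htra1 was at 480 and 387 FPKM with NanogWT and at 25.9 and 24.2 FPKM with NanogBiD. Pappa was at 28.6 and 31.8 FPKM against 1.03 and 1.73 FPKM. All 3 Igf2 mRNA-binding protein genes were called higher with NanogBiD and 3 of the 5 genes of IGFBP proteases and their inhibitors lower (background 23.4%), at the depth gap given above.

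Igf2, the one other ligand of the list that passed the filter, fell from 353 and 436 FPKM at D0 to 94.3 and 93.8 FPKM at D7 with NanogWT (-2.05 ± 0.18, adjusted p = 2.0e-08 by limma) and rose by 1.53 ± 0.18 to D12. With NanogBiD it fell by 1.12 ± 0.18 to D7 and the difference from D0 to D12 was -1.45 ± 0.18, and it was called lower with NanogBiD than with NanogWT at D10 (-1.15 ± 0.18) and D12 (-1.01 ± 0.18). Igf2 was at 2004 and 804 FPKM in MEFs and at 0.635 FPKM in mES. Igfbpl1, which encodes an IGFBP-like protein and was the one other binding protein to pass the filter, rose from D0 to D12, from at most 0.247 FPKM to 60.7 and 87.5 FPKM with NanogBiD and 49.4 and 45.3 FPKM with NanogWT, and was at 1.51 FPKM in mES. The Igfbpl1 rise was 6.18 ± 0.32 and 5.43 ± 0.32 on the log2 scale (adjusted p = 9.2e-12 and 1.5e-10 by limma).

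**Figure D5:**
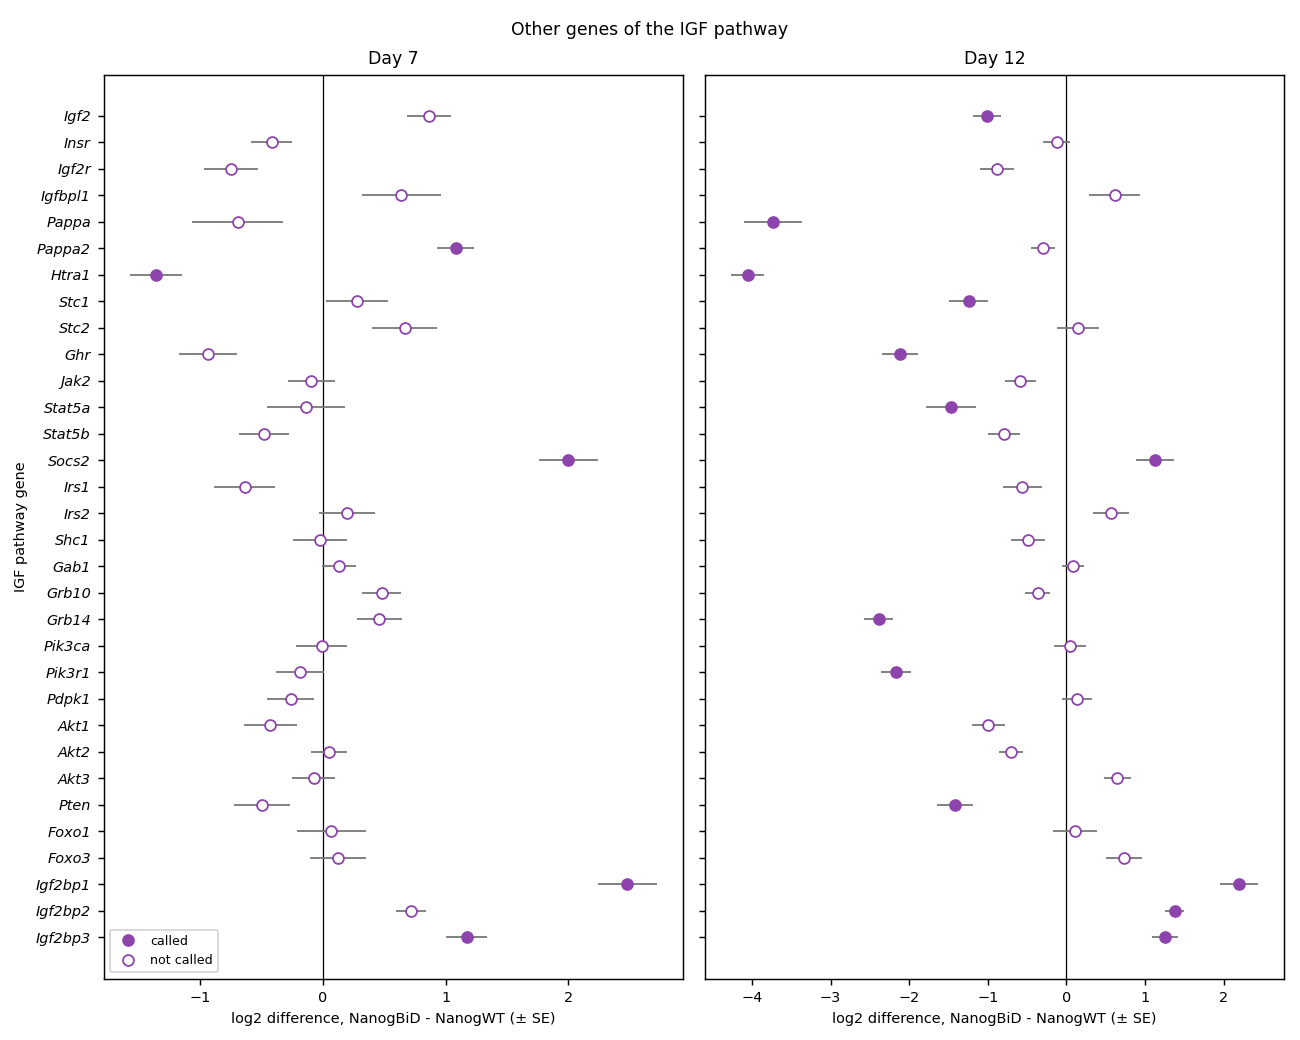
log2 difference of NanogBiD minus NanogWT at D7 and D12 for the 32 tested genes of the IGF pathway list, ordered by role, with standard errors; filled points were called. At D12 Htra1 and Pappa lie furthest to the left (-4.05 and -3.73), and at D7 Igf2bp1 lies furthest to the right (2.48).

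Against MEFs the iPSC showed 18 of 32 tested pathway genes called (background 40.7%), 4 higher and 14 lower, with a median of -0.70 against 0.22 over all genes. The largest were Igf2 (-8.49 ± 0.70), Grb10, an imprinted adaptor that restrains IGF1R and insulin receptor signalling (-4.31 ± 0.50), and Ghr, the growth hormone receptor (-4.06 ± 0.33). All 5 genes of the growth hormone axis were among those called, with Socs2 higher and the other 4 lower. Between iPSC of the 2 combinations 0 of 31 tested pathway genes were called. The counts and the median against MEFs were not cut to these 31 genes. A gene that passed the filter only through the MEF libraries can therefore be among those counted as lower.

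Over the 18 group means of the gene table, the genes with the pattern most like Igf1 were Me3, Tgfbr3 and 4930592A05Rik (Pearson r 0.961, 0.953 and 0.947). For Igfbp2 they were Ckb, Mmp15 and Efs (0.957, 0.954 and 0.951), for Igfbp3 Zfp354c, Maf and Bace1 (0.907, 0.904 and 0.903), and for Igfbp4 Cxxc5, Obsl1 and Tmem200b (0.948, 0.928 and 0.927). Igf1r was most like Tmem63a, Plcd1 and F2r (0.949, 0.940 and 0.932). For Igfbp5 they were Gm40814, Gm41035 and Trabd2b (0.926, 0.925 and 0.914) and for Igfbp7 Lrrfip1, Il1rl2 and Kctd11 (0.927, 0.917 and 0.915). These are descriptions over groups that share libraries, day and depth, and carry no test.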

How the data were processed

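RNA-seq of 46 mouse samples was analysed from the tables the authors deposited. Per the study's methods and the submitters' processing notes, the authors trimmed reads with Trim Galore 0.6.4, aligned them with HISAT2 2.2.1 to mm10 and quantified them with StringTie 2.2.1. What the authors deposited are FPKM values, in a table of 37108 genes and 34 libraries and one of 106520 transcripts and 15 libraries (iPSC, MEF, mES), which was summed by gene symbol. Annotation and strand setting are not given in the sources used here. The authors' GFOLD needs reads and was not used.

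Groups were taken from the sample labels. FPKM were analysed as log2(FPKM + 1) with limma 3.58.1 in R 4.3.3 (eBayes with an intensity trend, two-sided), since FPKM are not counts; this scale understates changes of low genes. Genes at 1 FPKM or more in at least 2 libraries of a fit were tested. The 31 time-course libraries shared one fit of 16 group means. D0 was compared with MEF in a fit of all 34 libraries of the gene table, the iPSC of the combinations with the line (iPSC1 or iPSC2) as covariate, and iPSC with MEF as the mean of the 4 iPSC group means minus MEF. D8 and mES, with 1 library in a group, were described without a test. Each model was tested on simulated data. Relative depth came from the ratios of the lowest FPKM values between libraries. Promoter windows and coordinates are RefSeq's (GRCm38.p6, the assembly of mm10).

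The members, the pathway list and the marker lists were chosen with earlier results of these data known. The text names the members, at most the 3 called pathway genes with the largest change in a comparison, and the 3 genes most like each member, which for Igfbp6 are not reported here. Alternatives were a pseudocount of 0.1, no filter, TPM or quantile scaling, no fold limit, the compared groups alone, the replicate number as a block, and each library left out. Leaving out the 6 deeper NanogWT libraries was added after the data were seen. NanogWT iPSC1 samples 1# and 1#-2 share a clone number and were also averaged as 1.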

Additional observations from a re-analysis of the deposited data

Results flagged for a closer look

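Among the 6 NanogBiD iPSC libraries, replicate 9 of iPSC1 lay far from the other 5 in Igfbp3 (28.4 FPKM against 2.27 to 4.55, the gap being 0.758 of the whole range of log2 values) and in Igfbp5 (21.7 FPKM against 0.176 to 0.918, 0.835 of the range). Among the 6 NanogWT iPSC libraries, replicate 3 of iPSC1 lay apart in Igf1, at 0.144 FPKM against 0 to 0.0494 (0.642 of the range), at a level too low to read. Chance alone marks about 1 in 20 groups, and 16 combinations of gene and iPSC group were looked at.

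The change from D0 to D7 differed between the combinations by the interaction test in limma for Igf1 (-1.22), Igf1r (-1.28), Igfbp2 (3.71), Igfbp3 (-1.70), Igfbp4 (2.30), Igfbp5 (-2.02) and Igfbp7 (2.196), on the log2 scale as NanogBiD minus NanogWT. The same test from D0 to D12 gave -4.29 for Igf1, 1.97 for Igfbp2 and -2.89 for Igfbp3. The D7 values of Igf1 and Igf1r each lost their call without 1 of the D0 libraries. The libraries of D0 and D7 were of like depth, whereas at D12 the NanogWT libraries were deeper.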

How the results depend on the processing

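Recomputed counts of called members stayed within 1.5 times the reported count in 250 cases and did not in 18. With no fold limit, 5 members were called between the combinations at D3, D5 and D12 and 5 in NanogWT from D7 to D12. In fits to the compared groups alone the counts were 1 at D3, 4 for the change to D7, 2 for NanogBiD and 1 for NanogWT at D0 against MEF; for the iPSC this fit is the reported one. Quantile scaling gave 5 for the change to D12, and no filter gave 2 for NanogBiD at D0 against MEF.

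With each library left out, the counts ran from 1 to 4 at D3 (1 without NanogWT replicate 1), 3 to 5 at D12 and 3 to 5 for the change to D12 (5 without NanogBiD D12 replicate 2 in both), 2 to 4 for NanogBiD and 2 to 4 for NanogWT at D0 against MEF, and 4 to 8 for iPSC against MEF with all 8 members counted (4 or 5 without a MEF replicate, in part because members high in MEF alone then no longer pass the filter). A group left with 1 library is assumed to vary like the others. Directions were followed only for pairs of member and comparison that were called in any setting. Among these they turned only at D0 against MEF. There Igfbp3 ran from -3.12 to 0.13 with NanogBiD and from -3.02 to 0.22 with NanogWT, and Igfbp2 from -1.61 to 0.12 with NanogWT, each positive without MEF replicate 1. In NanogWT, Igf1 ran from -0.53 (without MEF replicate 2) to 1.01, with -0.01 without D0 replicate 2, and Igfbp7 from -1.51 to 0.0828 (without D0 replicate 2). The cause was not tested.

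The replicate number as a block changed none of the 17 counts of the time course and none of the 97 single calls. Deviations of same-numbered libraries correlated at -0.06 to 0.39 over days, so the numbers were not taken to pair the samples, although the macrophage marker sum was higher in replicate 1 in 15 of 15 time-course groups of 2. Leaving out the deeper NanogWT libraries of D8 to D12 changed 1 of the 14 counts it could give, NanogBiD at D0 against MEF, from 4 to 3 (Igfbp3, -1.49, adjusted p = 0.0652 by limma). Those 14 hold no comparison with NanogWT at D10 or D12, so they cannot show what depth did there. TPM and quantile scaling moved the median of all genes by up to 0.19 and 0.34 on the log2 scale. No member changed direction under either in a comparison where any setting called it, and its other comparisons were not checked. Depth in reads is unknown, so no detection limit is given.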
